A study of Mus musculus with 6 samples.

Results

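The small leucine-rich proteoglycans of the extracellular matrix were followed in uterine RNA with and without Indian hedgehog (Ihh). The family was taken as 9 named genes (Dcn, Bgn, Aspn, Lum, Fmod, Prelp, Omd, Ogn and Podn), out of 18193 genes that the array measures with at least 1 probe set of a single gene symbol. They were represented by 20 probe sets, and all 20 passed the filter on dim probe sets. The control group was Ihhf/f, mice with floxed Ihh alleles, and the ablated group was Ihhd/d, the same floxed alleles with a Cre recombinase in 1 copy of the progesterone receptor locus (PRcre/+), with 3 samples in each group. All 6 samples were of uterus collected at day -1 of an artificially induced decidual response, in which hormone treatment and a uterine stimulus make the stroma differentiate without an embryo. Each sample was read on 1 Affymetrix array as 1 processed intensity per probe set. The Cre acts where the progesterone receptor gene is active and was present in the ablated group alone, so effects of the Cre allele and of losing Ihh cannot be told apart. Neither an age nor the number of mice behind a sample is given in the sources used here, and p-values therefore rest on the scatter among the samples as labelled, part or all of which may be technical. For all samples the label of the RNA source names SmoM2 mice (SmoM2 is an activated form of the Hedgehog pathway protein Smoothened), against the titles and genotypes, which were used.

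Small leucine-rich proteoglycans are secreted proteins built of leucine-rich repeats, most of which carry sulfated sugar chains. They bind collagen fibrils and set fibril thickness and spacing, and several also bind growth factors such as TGF-beta or signal through receptors on the cell surface. In the uterus they belong to the matrix of the stroma and the muscle layer, and the stromal part of that matrix is remodelled when the decidua forms. Ihh is made by the uterine epithelium under progesterone and is received by the stroma, where proteoglycans of this kind are made.

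The single Ihh probe set read 163.9, 162.3 and 140.2 in control replicates 1 to 3 and 121.4, 93.3 and 135.4 in Ihh-ablated replicates 1 to 3, a log2 difference (Ihh-ablated minus control, as throughout) of -0.43 that did not pass the limma test (adjusted p = 0.164). No label gives the extent of the deletion, so whether the probe set lies inside it is unknown. The Hedgehog target Gli1, a transcription factor, fell by 2.53 on the log2 scale (adjusted p = 0.000492), and the Hedgehog receptor Ptch1 fell by 1.65 (adjusted p = 0.00146). Array medians lay between 121.4 and 142.5, and the arrays correlated with Pearson's r between 0.951 and 0.990 across probe sets, which are not independent replicates. The tissue showed its defining markers: the summed intensity of 8 smooth muscle markers was 49828 to 53962 in control and 51472 to 51561 in ablated uteri, that of 8 stromal markers 15086 to 17896 and 13467 to 13913, and that of 8 epithelial markers 10868 to 16114 and 15560 to 17284. Some arrays carried transcripts of other tissues. The sum of 8 pancreas markers was 66604 in Ihh-ablated replicate 2 against 795 to 2381 elsewhere. That of 7 striated muscle markers was 4909, 4409 and 11472 in control replicates 1 to 3 and 1812 to 2304 in ablated uteri. This sum was thus lower in every ablated array than in any control, also with control replicate 3 left aside. In the fit of all 6 arrays the median log2 difference of these markers was -1.10, with 1 of 7 passing as lower. That of 7 adipocyte markers ran from 2972 to 13708 in control and from 10852 to 25321 in ablated uteri. Marker genes under the intensity floor of 16 on all arrays numbered 0 in each list, and no detection calls were available, so a dim marker is not shown to be absent. In whole tissue, fewer cells of a type and less RNA per cell cannot be told apart.

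The family did not move as a block. Ogn (osteoglycin) and Aspn (asporin), which lie on either side of Omd on chromosome 13, read higher in Ihh-ablated uteri. Fmod (fibromodulin) read lower, and the bright transcripts of Dcn (decorin), Bgn (biglycan) and Lum (lumican) differed little. With each gene taken at its brightest probe set, 2 of 9 genes rose (Ogn and Dcn), 0 fell and 7 did not pass an adjusted p of 0.05. The same rule called 2.81% of the 15530 genes tested, 1.28% of them higher and 1.53% lower. Over all probe sets of the family, 4 of 20 rose (both of Ogn, 1 of Aspn, 1 of Dcn), 2 of 20 fell (both of Fmod) and 14 did not pass, against 2.14% of all probe sets called (1.03% higher and 1.11% lower). The groups did not overlap in 10 of 20 probe sets and in 4 of 9 genes, where 31% of all probe sets and 32.3% of all genes did not overlap. The median log2 difference of the 9 genes was 0.18, beside -0.04 over all genes tested.

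The windows just before the gene starts are shown for 4 genes, because Aspn, Omd and Ogn lie next to each other and did not read alike, and Fmod was the gene with lowered probe sets. They are RefSeq sequences of mouse assembly GRCm38.p6, 250 bases up to the base before the start, all on the plus strand, written 5′ to 3′. The windows are chr13:49544193-49544442 for Aspn, chr13:49582212-49582461 for Omd, chr13:49607765-49608014 for Ogn and chr1:134037004-134037253 for Fmod. Capitals mark any match, on either strand, to the binding sequence of the Hedgehog effectors of the GLI family (GACCACCCA), to a TATA motif (TATAAA) or to a core motif of nuclear receptors (AGGTCA).
Aspn: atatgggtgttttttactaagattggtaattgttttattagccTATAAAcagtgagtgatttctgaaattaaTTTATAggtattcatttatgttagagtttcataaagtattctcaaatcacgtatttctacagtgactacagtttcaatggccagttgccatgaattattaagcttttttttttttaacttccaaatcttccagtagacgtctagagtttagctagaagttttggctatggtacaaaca
Omd: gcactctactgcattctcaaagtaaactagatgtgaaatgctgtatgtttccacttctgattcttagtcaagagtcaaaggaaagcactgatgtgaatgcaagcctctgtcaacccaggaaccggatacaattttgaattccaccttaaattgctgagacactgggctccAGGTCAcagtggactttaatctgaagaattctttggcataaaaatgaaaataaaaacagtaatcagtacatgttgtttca
Ogn: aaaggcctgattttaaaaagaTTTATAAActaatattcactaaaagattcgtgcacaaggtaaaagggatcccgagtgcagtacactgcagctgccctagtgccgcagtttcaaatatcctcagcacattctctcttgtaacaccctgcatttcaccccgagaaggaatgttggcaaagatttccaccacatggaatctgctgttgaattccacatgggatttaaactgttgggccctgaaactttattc
Fmod: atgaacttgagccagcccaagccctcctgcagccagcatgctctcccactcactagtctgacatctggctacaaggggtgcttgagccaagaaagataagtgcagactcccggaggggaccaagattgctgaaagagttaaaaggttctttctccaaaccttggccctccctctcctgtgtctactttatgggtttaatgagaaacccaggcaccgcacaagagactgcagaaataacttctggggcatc
The GLI sequence had no match in these windows, nor in any of the 8 windows found for 7 of the 9 genes, and 0.225% of all 32851 promoter windows of this length hold it. TATAAA matched on both strands in Aspn and in Ogn, where the matches of both strands overlap and start 229 and 227 bases before the gene start. It occurs in 12.4% of all windows. AGGTCA matched in Omd, 80 bases before the start, and occurs in 14% of all windows. These matches describe letters in the window and are not binding sites.

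Ogn, also called osteoglycin or mimecan, is a collagen-binding proteoglycan whose name comes from bone. Its brightest probe set (1419663_at) read 2045, 1874 and 2297 in control replicates 1 to 3 and 3604, 2793 and 2948 in Ihh-ablated replicates 1 to 3. Every Ihh-ablated array lay above every control array, with replicate 1 the highest. The group means were 2072 ± 213 and 3115 ± 431 (SD, n = 3 each), a 1.50-fold rise (log2 0.58, SE 0.11, 95% interval 0.35 to 0.82, adjusted p = 0.0271). The other Ogn probe set (1419662_at) was steadier among controls, at 1574, 1623 and 1601, and read 3150, 2444 and 2431 without Ihh. It rose 1.66-fold (log2 0.73, SE 0.10, 95% interval 0.51 to 0.95, adjusted p = 0.00863), the lowest adjusted p of the 20 probe sets. Ogn ranked 338 among the 15530 genes by size of rise.

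The Ogn call of the brightest probe set lay near the threshold. It was lost after quantile normalization (log2 0.53, adjusted p = 0.0608), with median-centred arrays (0.68, 0.0519), without an intensity trend in the variance (0.58, 0.0902) and with a covariate for adipocyte markers (0.61, SE 0.14, 0.240). The fit with that covariate called 0.129% of all genes, and in it the other probe set read 0.81 without passing (adjusted p = 0.0832). The call was also lost, with the direction kept, without control replicate 1 (adjusted p = 0.114) or 2 (0.0953) and without Ihh-ablated replicate 1 (0.0806) or 3 (0.0687), and the other probe set lost it without control replicate 1 alone among single arrays (0.0564). The part of adipose tissue in the Ogn values was not tested beyond that covariate. Ogn kept its call without both control replicate 3 and Ihh-ablated replicate 2, the arrays with the highest striated muscle and pancreas sums. This alternative was added with those markers known, and in it 2 of 9 members and 7.12% of all genes were called.

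Aspn (asporin) is close to decorin in sequence, binds collagen and TGF-beta, and differs from its relatives in a stretch of aspartates. Its probe set 1416652_at read 348.3, 330.2 and 356.7 in control replicates 1 to 3, against 623.2, 498.0 and 527.6 in Ihh-ablated replicates 1 to 3. The groups were well apart, and replicate 1 was again the highest of the ablated arrays. The rise was 1.59-fold (log2 0.67, SE 0.11, 95% interval 0.42 to 0.91, adjusted p = 0.0178). The brighter Aspn probe set (1448421_s_at) read 651.8, 689.3 and 730.5 in control and 1106, 937.0 and 743.1 in ablated uteri. Here the lowest ablated array, replicate 3, lay just above the highest control array. Its log2 difference of 0.41 (SE 0.13, 95% interval 0.11 to 0.71) did not pass, with an adjusted p of 0.135. The probe sets thus had the same direction and different calls. The call of 1416652_at was lost without control replicate 1 (adjusted p = 0.0768) or 2 (0.0576) and without Ihh-ablated replicate 1 (0.0924) or 3 (0.0650), and with the adipocyte covariate (0.72, adjusted p = 0.170).

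**Figure D1:**
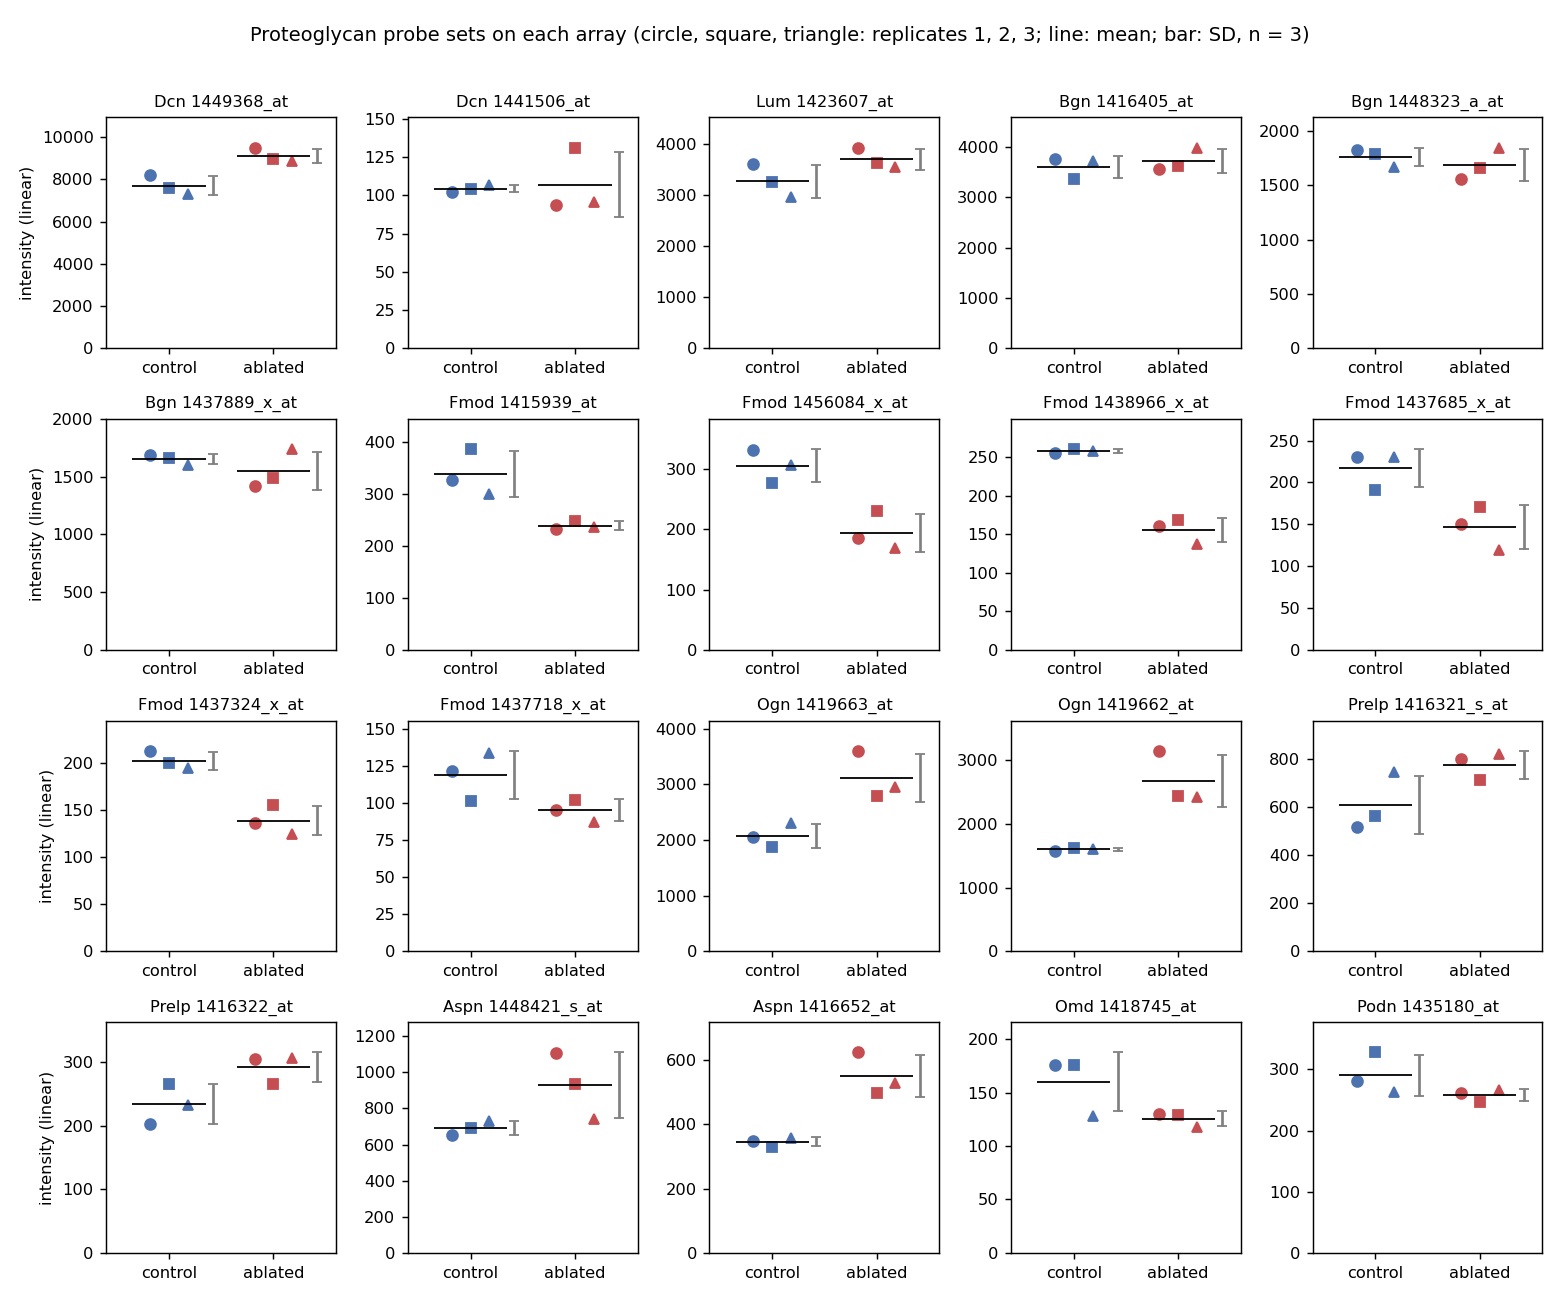
Each panel shows 1 probe set of the 9 genes, with the deposited intensity on a linear axis from 0 and the 3 control arrays (blue) beside the 3 Ihh-ablated arrays (red); symbols give the replicate number, the line the mean and the bar the SD. Both Ogn and both Aspn probe sets lie higher in all 3 Ihh-ablated arrays, 5 of the 6 Fmod probe sets lie lower in all 3, and the Bgn groups overlap in all 3 of its probe sets.

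Decorin, the family's best studied member, binds collagen and TGF-beta and carries a single chondroitin or dermatan sulfate chain. Its bright probe set (1449368_at) read 8232, 7573 and 7327 in control replicates 1 to 3, and the ablated ones read 9516, 8962 and 8872. All ablated arrays were higher, by a margin small against the level. The means were 7711 ± 468 and 9117 ± 349 (SD, n = 3 each), a 1.18-fold rise (log2 0.24, SE 0.05, 95% interval 0.13 to 0.36), and the adjusted p of 0.0488 lay at the threshold. It passed among arrays left out singly only without control replicate 3, and without the other arrays the adjusted p was 0.0575 to 0.170. The call was likewise lost after quantile normalization (0.0998), with median-centred arrays (0.0840), without the filter (0.0724), without an intensity trend (0.196), as a mean of probe sets (0.323) and with the adipocyte covariate (0.0670). In the fit without both arrays that have the highest striated muscle and pancreas sums it was 0.0600. A dim Dcn probe set (1441506_at) read 102.2, 104.1 and 106.7 in control and 93.6, 131.3 and 95.9 in ablated uteri, so the groups overlapped (log2 0.02, 95% interval -0.32 to 0.36, adjusted p = 0.951).

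Biglycan, the closest relative of decorin by sequence, binds collagen and can signal through Toll-like receptors. Its brightest probe set (1416405_at) read 3758, 3363 and 3718 in control and 3561, 3624 and 3994 in ablated uteri. The groups were interleaved, and the log2 difference was 0.04 (95% interval -0.10 to 0.19, adjusted p = 0.690). The other Bgn probe sets read -0.06 (95% interval -0.24 to 0.11) and -0.10 (95% interval -0.28 to 0.09). Their sign differs from that of the brightest, whose own sign turned in 5 of 19 alternatives. Any difference of Bgn beyond these intervals was not seen at 3 arrays per group.

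**Figure D2:**
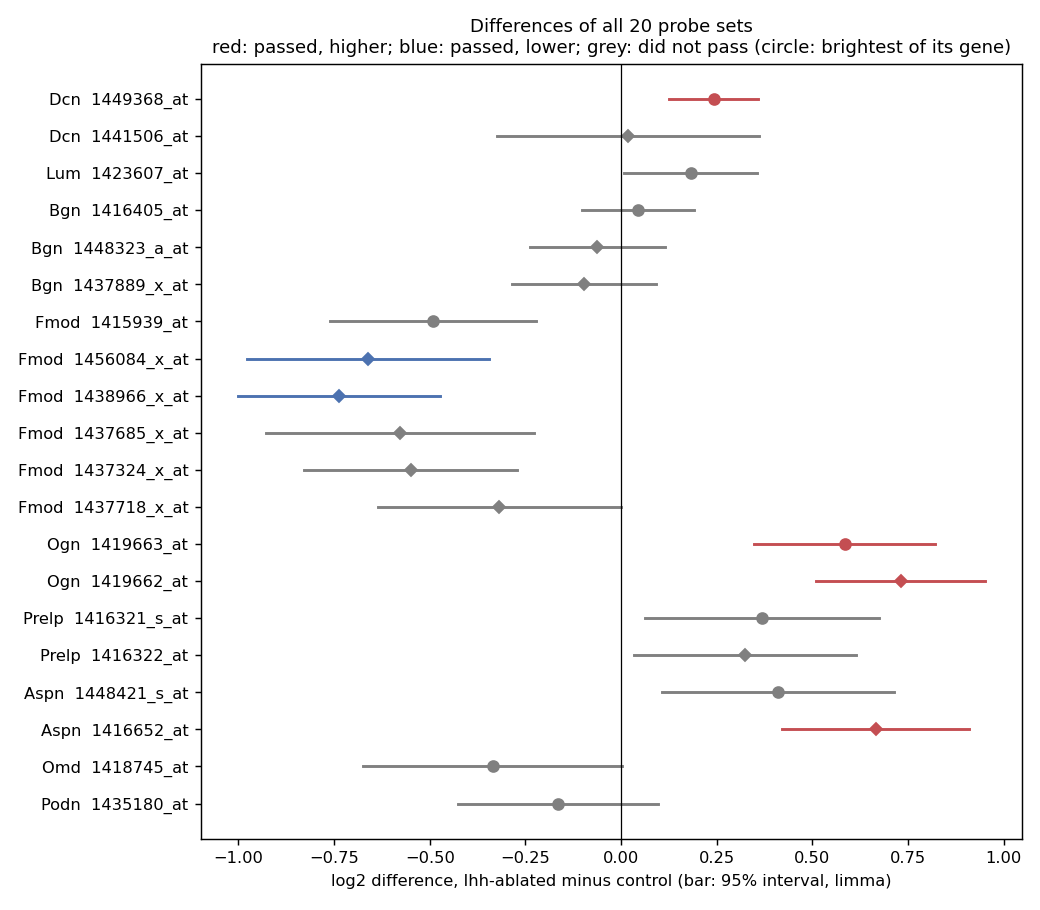
Points give the log2 difference (Ihh-ablated minus control) of each of the 20 probe sets and bars its 95% interval from limma; circles mark the brightest probe set of a gene, and red and blue mark an adjusted p under 0.05. The Ogn and Aspn probe sets lie between 0.41 and 0.73, the Fmod probe sets between -0.74 and -0.32, and those of Bgn on both sides of 0.

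Fibromodulin carries keratan sulfate chains and takes part in collagen cross-linking and fibril assembly. It had 6 probe sets, and in each the Ihh-ablated mean was the lower. The probe set 1438966_x_at read 255.5, 260.3 and 258.9 in control replicates 1 to 3, and the ablated ones read 160.5, 168.5 and 137.6. The controls lay within a few units of each other, and each ablated array was far below them. This fall was 1.67-fold (log2 -0.74, SE 0.12, 95% interval -1.00 to -0.47, adjusted p = 0.0164). A further probe set, 1456084_x_at, read 332.5, 277.5 and 306.9 against 185.3, 229.7 and 168.3 and fell 1.58-fold (log2 -0.66, SE 0.14, adjusted p = 0.0485).

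The remaining 4 Fmod probe sets did not pass. The brightest (1415939_at) read 326.5, 385.6 and 298.9 in control and 231.2, 248.1 and 236.5 in ablated uteri, again without overlap, with a log2 difference of -0.49 (SE 0.12, 95% interval -0.76 to -0.22, adjusted p = 0.0731). It passed without control replicate 3 (-0.57, adjusted p = 0.0223) and with array weights (-0.43, adjusted p = 0.0431), fits that called 12.2% and 5.04% of all genes. With each gene taken as the mean of its probe sets, Fmod fell by 0.56 (adjusted p = 0.0296). The others read -0.58, -0.55 and -0.32, with adjusted p values of 0.0933, 0.0572 and 0.218, and only the last of these, the dimmest, had overlapping groups. The non-overlap of 5 of 6 probe sets in the lower direction stands beside 17.9% of all probe sets. Of the 6 probe sets, 5 carry the suffix _x_at, which marks probes that can also match other transcripts, and all 6 read the same RNA samples, so they are not independent measurements. Both calls were lost without control replicate 1 (adjusted p = 0.0744 and 0.157) and without Ihh-ablated replicate 1 (0.0794 and 0.170) or 3 (0.0797 and 0.192), and that of 1456084_x_at also without control replicate 2 (0.0667). The call of 1456084_x_at was further lost after quantile normalization (0.0692), with median-centred arrays (0.105), without the filter (0.0715) and without a trend (0.0755). With the adipocyte covariate both were lost, at -0.69 (adjusted p = 0.251) and -0.56 (0.481). The summed level of 6 cartilage and tendon markers, genes of tissues rich in Fmod, was 1020 to 1653 in control and 822 to 883 in ablated uteri, with 0 of the 6 passing the test. Whether such tissue had a part in the Fmod values was not tested.

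Lumican, a keratan sulfate proteoglycan that limits fibril thickness and is a neighbour of Dcn on chromosome 10, read 3605, 3251 and 2957 in control and 3931, 3621 and 3552 in ablated uteri. Control replicate 1 overlapped with the ablated arrays. The log2 difference was 0.18 (SE 0.08, 95% interval 0.01 to 0.35), and the adjusted p of 0.202 did not pass. It passed in 0 of 19 alternatives, with log2 differences of 0.11 to 0.33.

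Prelp, whose basic amino terminus binds heparan sulfate and which links basement membranes to collagen, had 2 probe sets of the same direction. The brighter (1416321_s_at) read 516.1, 563.0 and 745.7 in control and 799.2, 711.4 and 821.0 in ablated uteri. Control replicate 3 was the exception among controls and lay above Ihh-ablated replicate 2. The log2 difference was 0.37 (SE 0.14, 95% interval 0.06 to 0.68, adjusted p = 0.162), and that of the other probe set 0.32 (adjusted p = 0.184). Without control replicate 3 the brighter one passed, at 0.53 (adjusted p = 0.0166), in a fit that called 12.2% of all genes. The other probe set read 0.33 in that fit and did not pass (adjusted p = 0.178). Its control replicate 3, at 233.3, lay between the other controls, at 203.6 and 265.8. Without control replicate 3 and Ihh-ablated replicate 2 the brighter one read 0.59 (adjusted p = 0.0199), in a fit that called 7.12%. The other read 0.39 there (adjusted p = 0.218). Control replicate 3 also had the highest striated muscle sum of all arrays and the highest adipocyte sum of the controls. With the adipocyte covariate the brighter probe set read 0.16 (adjusted p = 0.668) and the other 0.21 (adjusted p = 0.639). The part of striated muscle in the Prelp values was not tested, nor that of adipose tissue beyond this covariate.

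Osteomodulin (Omd), a keratan sulfate proteoglycan named for its place in bone, lies between Aspn and Ogn and read 176.1, 176.0 and 128.1 in control and 130.2, 128.8 and 117.9 in ablated uteri. Control replicate 3 again sat with the ablated arrays. The log2 difference of -0.34 (SE 0.15, 95% interval -0.67 to 0.003) did not pass (adjusted p = 0.221). Without control replicate 3 it was -0.49 (adjusted p = 0.0453), in the fit that called 12.2% of all genes. With the adipocyte covariate it was -0.14 (adjusted p = 0.758). Podocan (Podn), a member first described in kidney podocytes that binds collagen, read 280.6, 327.8 and 262.5 in control and 261.5, 246.3 and 266.4 in ablated uteri. Its groups overlapped, with a log2 difference of -0.16 (95% interval -0.43 to 0.10, adjusted p = 0.402).

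**Figure D3:**
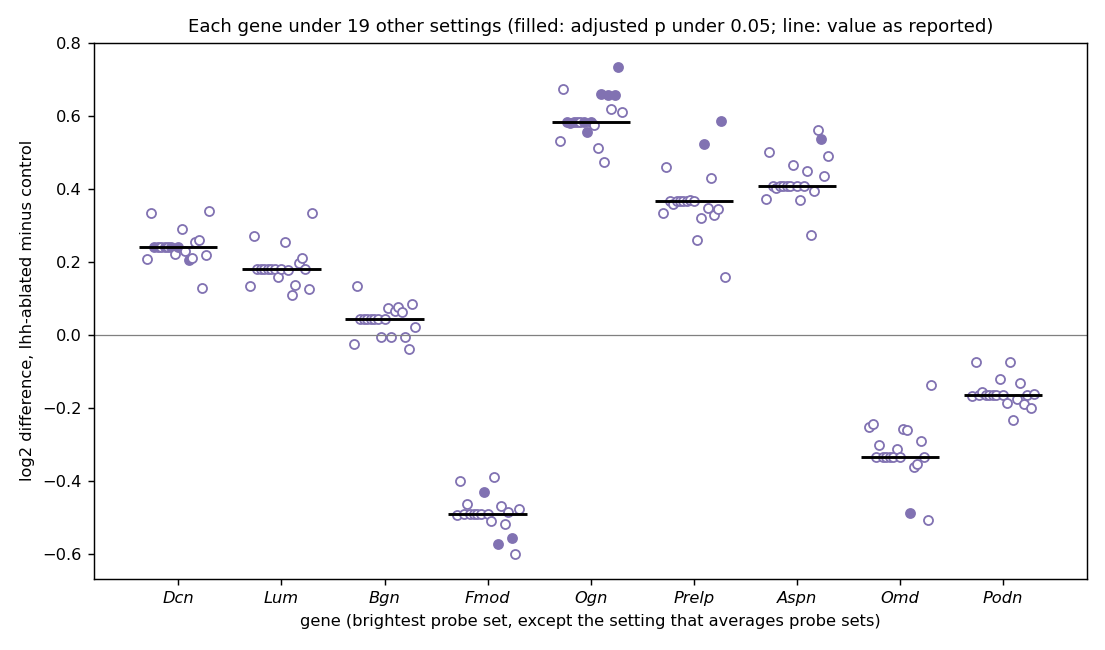
For each of the 9 genes, circles give the log2 difference (Ihh-ablated minus control) under 19 other settings, filled where the adjusted p was under 0.05, and the black line is the value as reported. Values for Ogn stay between 0.47 and 0.74 and those for Fmod between -0.60 and -0.39, whereas Bgn falls on both sides of 0 and Dcn, between 0.13 and 0.34, is near the threshold. Settings that changed only the filter, variance model or replicate block, or set the floor at 64, repeat the reported difference.

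Most of these genes sit in clusters that arose by duplication, so each cluster was read in gene order. On chromosome 13 the order is Ecm2, Aspn, Omd, Ogn, and the log2 differences alternated: -0.62 for Ecm2, a related leucine-rich matrix protein (SE 0.21, adjusted p = 0.145), 0.41 for Aspn, -0.34 for Omd and 0.58 for Ogn. A single member of that row passed at its brightest probe set, and the Ecm2 level of 138.6 ± 41.2 in control and 87.5 ± 2.0 in ablated uteri (SD, n = 3 each) was dim. Another Ecm2 probe set, below the filter, read the other way, with means of 51.5 in control and 88.6 without Ihh. On chromosome 10, Dcn and Lum read 0.24 and 0.18, while their neighbours Kera and Epyc, proteoglycans of cornea and cartilage, were below the filter. On chromosome 1, the eye gene Optc read 0.04 (adjusted p = 0.872) beside 0.37 for Prelp and -0.49 for Fmod. Of the 18 coding genes that flank the 3 clusters, 3 on each side, 14 were tested and 0 passed in limma, with log2 differences of -0.45 to 0.45. Gene order is that of RefSeq assembly GRCm38.p6, in which all 9 genes matched by identifier.

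**Figure D4:**
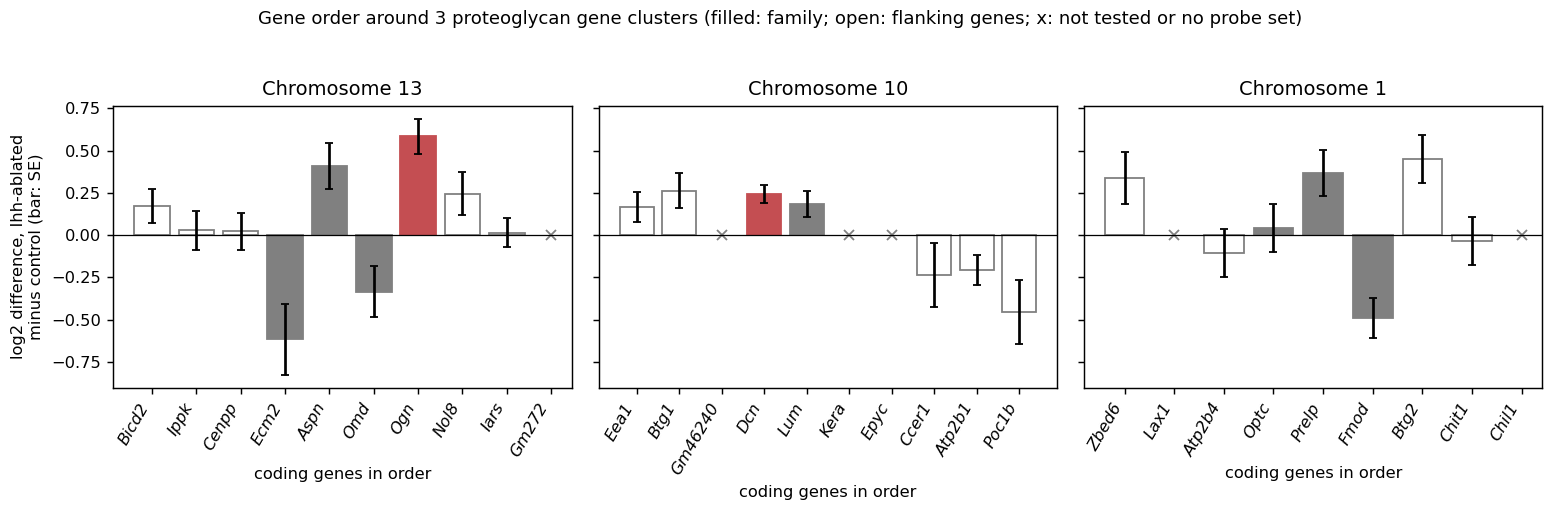
Bars give the log2 difference (Ihh-ablated minus control) with its SE for coding genes in their order along 3 chromosomes, filled for the proteoglycan family and open for flanking genes; crosses mark genes not tested or without a probe set. On chromosome 13, Aspn and Ogn point up and their neighbours Ecm2 and Omd point down.

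The wider family and the genes that make, cut and bind these proteoglycans were counted in the same fit, at the brightest probe set of each gene. Of 9 further leucine-rich relatives, 5 were tested and 0 passed (median log2 -0.37). The lowest p among them was that of the cartilage protein Chad, at -0.39 (adjusted p = 0.125).

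Among 18 tested genes of the enzymes that build the linker and the chondroitin and dermatan sulfate chains, 1 rose, 0 fell and the median was -0.001. The gene that rose was Chst11, a chondroitin sulfotransferase, from 791.6 ± 142 to 1411 ± 72 (SD, n = 3 each), 1.80-fold (log2 0.85, SE 0.12, adjusted p = 0.0117). Its call was lost without control replicate 2 (adjusted p = 0.0512), without Ihh-ablated replicate 1 (0.0597) and under the adipocyte covariate (log2 0.67, adjusted p = 0.175). A dimmer Chst11 probe set read 0.22 (104.1 to 119.6) and did not pass (adjusted p = 0.397). Of 11 genes of keratan sulfate synthesis and sulfate supply, 1 rose and 0 fell (median 0.04). This was B3gnt2, which extends the sugar repeat that keratan sulfate is built on (log2 0.49, SE 0.10, adjusted p = 0.0437), a call kept without 2 of the 6 arrays left out singly and lost after quantile normalization (adjusted p = 0.0602) and with median-centred arrays (0.0570). Another B3gnt2 probe set read 0.35 and did not pass (adjusted p = 0.149).

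Among 9 tested genes of processing and cleavage, 1 fell, Pcolce, an enhancer of procollagen processing (log2 -0.44, SE 0.09, adjusted p = 0.0413), and the median was -0.005. Bmp1, the protease that removes the propeptides of several of these proteoglycans, read 0.06 (adjusted p = 0.747). Of 12 tested collagens and other matrix partners, 1 fell, the fibril collagen Col5a2 (log2 -0.45, SE 0.09, adjusted p = 0.0319), and 11 did not pass (median -0.13). A dimmer Col5a2 probe set read -0.59 and did not pass (adjusted p = 0.0851). Col1a1, Col1a2 and Col3a1, the chains of the main fibrils, read -0.15, -0.01 and -0.10 at their brightest probe sets. Their other probe sets were not all alike: 1 of Col1a2 fell by 0.22 on the log2 scale (5174 to 4438, adjusted p = 0.0312), 1 of Col3a1 fell by 0.54 (1963 to 1342, adjusted p = 0.0403), and 1 of Col1a1 (-0.26, adjusted p = 0.184) and a dim one of Col1a2 (0.33, adjusted p = 0.416) did not pass. Of 14 receptors and ligands that members of the family bind, 1 rose, Lrp1, an endocytic receptor for decorin (log2 0.39, SE 0.08, adjusted p = 0.0495), with a median of 0.15. Pcolce, Col5a2 and Lrp1 each kept the call without 1 of the 6 arrays left out singly, with adjusted p values of up to 0.155, 0.120 and 0.165. With median-centred arrays these were 0.150, 0.121 and 0.0673, and with the adipocyte covariate 0.414, 0.368 and 0.481. A second Pcolce probe set also fell (-0.48, adjusted p = 0.0385), and a dim one of Lrp1 read 0.24 and did not pass (adjusted p = 0.473).

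Proteoglycans of other families were measured through 19 tested genes, of which 1 rose and 1 fell (median -0.11). Vcan, the large hyaluronan-binding proteoglycan versican, fell by 1.71 on the log2 scale (SE 0.17, adjusted p = 0.00267) and kept its call without each single array, but not with the adipocyte covariate (-1.50, adjusted p = 0.0681). Sdc1, a cell surface heparan sulfate proteoglycan of epithelia, rose from 1080 ± 69 to 1456 ± 72 (SD, n = 3 each, log2 0.43, SE 0.08, adjusted p = 0.0254). It kept its call without 1 of 6 arrays but not with median-centred arrays (0.0538) or the adipocyte covariate (0.144). Without both control replicate 3 and Ihh-ablated replicate 2 the call was also lost (0.0622). Another Sdc1 probe set rose as well (0.45, adjusted p = 0.034). Those reading 0.46 (adjusted p = 0.0764) and, the other way, -0.20 (adjusted p = 0.528) did not pass. Epithelial markers had a median of 0.37 with 0 of 8 passing. Each of these lists had at most 1 gene called in each direction, beside 2.81% of all genes called.

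**Figure D5:**
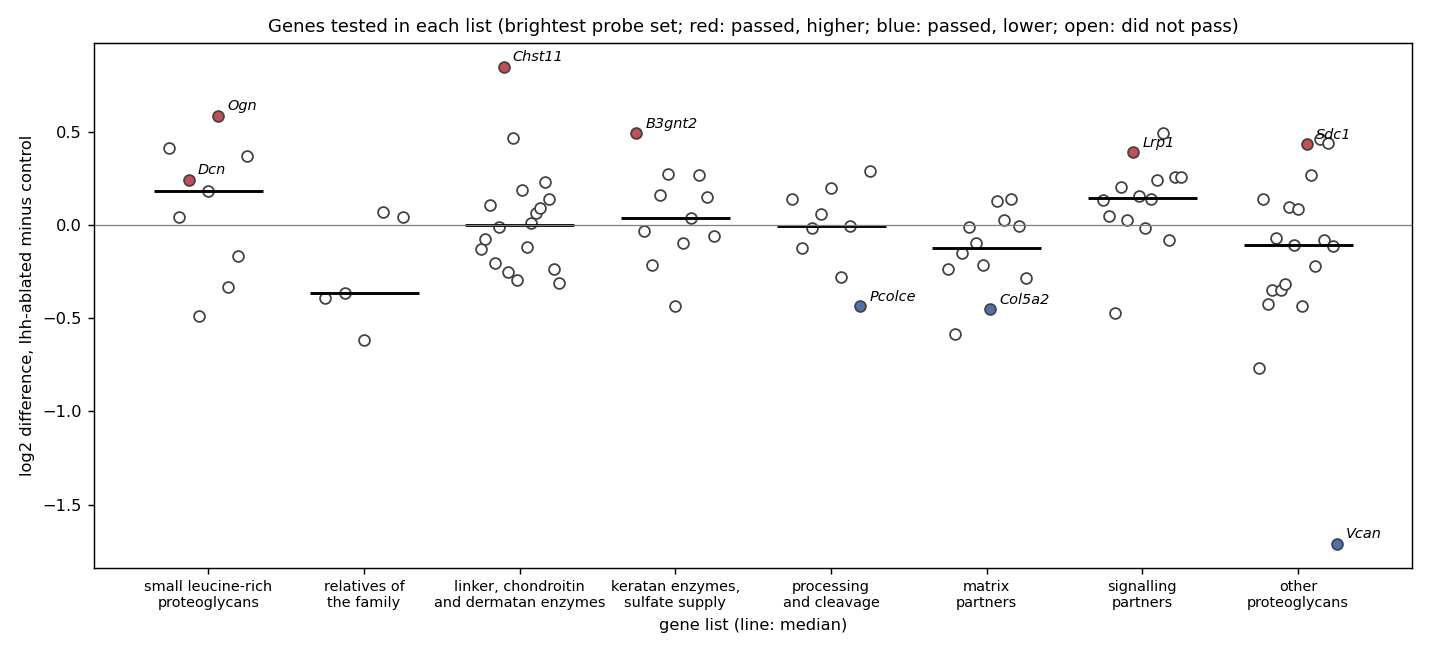
Circles give the log2 difference (Ihh-ablated minus control) of each tested gene, by list, with the median as a line; red and blue mark an adjusted p under 0.05. The small leucine-rich proteoglycans have 2 red circles, and each other list has between 0 and 2 coloured ones, of which Vcan at -1.71 is the farthest from 0.

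The uterine stroma, adventitia and adipose tissue also hold transcripts of this family, and their markers were read in the same fit. Of 8 stromal markers, 2 fell, Thy1 (log2 -1.44, adjusted p = 0.00139) and Vim (-0.37, adjusted p = 0.0139), and 0 rose, beside 1.53% of all genes lower and 1.28% higher. The groups did not overlap in 5 of the 8, beside 32.3% of all genes. Of the other 6, Hand2 (-0.43, adjusted p = 0.0514) and Nr2f2 (-0.24, adjusted p = 0.138) read lower in all ablated arrays without passing, Pdgfrb (0.27, adjusted p = 0.119) read higher in all of them without passing, and the groups of Pdgfra, Hoxa10 and Hoxa11 overlapped. The 6 markers of adventitial fibroblasts on the array had a median of -0.12, with 0 passing and sums of 11123 to 11647 in control and 10742 to 12900 in ablated uteri. Their groups did not overlap in 3 of the 6. Dpt (-0.26, adjusted p = 0.0857) and Col15a1 (-0.53, adjusted p = 0.0795) read lower in all ablated arrays. Gsn, the brightest of the list, read higher in all of them (0.48, adjusted p = 0.068). Adipocyte markers, whose tissue also makes decorin and other members, had a median of 1.26 over 7 genes with overlapping groups and 0 passing. Whether stroma, adventitia or adipose tissue had a part in the values of the family was not tested beyond the adipocyte covariate.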

How the data were processed

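Total RNA of 6 mouse uterus samples was labelled as biotinylated cRNA and read on Affymetrix arrays, per the labels' protocols. The authors deposited intensities that are already summarised per probe set and are linear. How they were summarised, background-corrected and scaled the labels do not state, and this could affect dim probe sets most. Of 45101 probe sets, 64 controls were left out; 34945 of the others had 1 gene symbol in the platform annotation and 0 member probe sets had several. Intensities under 16 were set to 16, log2 was taken, and the lowest 25% by mean (log2 under 6.16) were dropped, leaving 33778. Both groups were fitted in limma 3.58.1 under R 4.3.3 (lmFit, eBayes with an intensity trend, 4 residual degrees of freedom), with Benjamini-Hochberg adjustment over all probe sets tested. In simulated data of 33778 probe sets, 98 of 100 changed 2-fold and 100 of 100 changed 4-fold were recovered, with 18 false calls among 216. No change under 2-fold was simulated, and every member difference was smaller than that. The simulation therefore does not show how often differences of the members' size would be recovered. The 9 members and all lists were chosen with earlier results of these data known. All members were named, and of each related list those that passed or the lowest p; Bmp1, Ecm2, Optc and 3 collagen chains were named after their values were seen. The samples were fitted as unpaired. Correlations of same-numbered deviations were -0.15, -0.04 and 0.25, within the -0.24 to 0.32 of differently numbered ones. With 3 arrays per group these values cannot decide whether replicate numbers pair the samples. Alternatives changed scaling, floor, filter, variance model, weights, block, arrays, probe set and threshold. Figures used matplotlib 3.10.9 in Python 3.11.15.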

Additional observations from a re-analysis of the deposited data

How the results depend on the processing

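Directions of the 9 genes, at their brightest probe sets, held in all 19 alternatives except for Bgn, which read -0.0237 after quantile normalization, -0.0066 with array weights, -0.038 as the mean of its probe sets and -0.0065 to 0.0763 with single arrays left out. The alternatives of filter, variance model and replicate block, and that of a floor of 64, left these differences unchanged. They could therefore alter a call but not a direction. Adding 16 to each intensity in place of the floor moved the differences slightly, with Fmod at -0.46 and Omd at -0.30. Member genes called numbered 2 as reported, 0 after quantile normalization, with median-centred arrays, without an intensity trend and with adipocyte markers as a covariate (an alternative added with these markers known, which left 20 of all genes called, 0.129%), 1 without the filter, and 3 with array weights, with averaged probe sets and at an adjusted p under 0.10. They numbered 0 to 5 with single arrays left out, where 111 to 1890 of all genes were called. Member probe sets called numbered 6 as reported, 3 after either scaling and without a trend, 0 with the covariate, 9 at the 0.10 threshold and 0 to 10 with single arrays left out. Over the array 724 probe sets were called, against 487 with median-centred arrays, 374 without a trend, 1411 with array weights, 1852 at the 0.10 threshold, 1562 with the replicate block, 1915 without control replicate 3 and Ihh-ablated replicate 2, 23 with the covariate and 156 to 3569 with single arrays left out. With the replicate block 2 member genes and 6 member probe sets were called, as without it. Without control replicate 3, 5 member genes were called, beside 12.2% of all genes, and without control replicate 1, 0 were, beside 0.766%; the cause was not tested. The 3 arrays per group limit the precision.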
